A study of Mus musculus with 7 samples.

Results

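Gpr83, Izumo1r, Nrp1, Capg and Cd4 are 5 genes whose products mark regulatory T cells (Tregs) or the CD4+ lineage they belong to, 4 at the cell surface and 1, Capg, in the cytosol. They were chosen by symbol from the gene table of the study, and make up 5 of the 25469 genes with a count in any library. All 5 passed the filter on low counts, together with 13899 other genes, so that 13904 genes were tested. The libraries came from splenic CD4+CD25+ cells of male wild type (WT) C57BL/6 mice, which the study took with magnetic beads and calls Tregs. For its transfusions, the study checked the splenic Tregs from its isolation kit by flow cytometry. Aged Tregs came from mice of 18 months (n = 3 biological replicates) and young Tregs from mice of 8 weeks (n = 4) according to the labels. A slightly greater age of the young mice stands in the methods of the study. No surgery, drug or transgene is named in the labels of either group, so the question asked was how the basal transcript levels of these markers differ with age. The labels name the cells by CD4 and CD25, not by Foxp3. Each library is a bulk of cells, in which fewer cells of a type and less RNA per cell cannot be told apart.

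Tregs are CD4+ T cells that restrain other immune cells under the control of the transcription factor Foxp3. Gpr83 is a G protein-coupled receptor that is abundant on Tregs and in parts of the brain, and the peptide PEN, cut from the product of Pcsk1n, is a known ligand. Izumo1r, also called folate receptor 4 or Juno, is a membrane-anchored protein of the folate receptor family that is high on Tregs, and on the egg it binds the sperm protein Izumo1. Nrp1 is a co-receptor for class 3 semaphorins and vascular endothelial growth factors, and on mouse Tregs it binds Sema4a and is used to mark cells that arose in the thymus. Cd4 encodes the co-receptor that binds MHC class II beside the T cell receptor. Capg is a gelsolin family protein that caps the ends of actin filaments.

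The 5 genes lie on 3 chromosomes of the mouse genome (GRCm38, annotation GENCODE M21), and all are protein coding. Gpr83 (ENSMUSG00000031932) spans chr9:14860210-14870789 on the plus strand, with 5095 bases of exon. Izumo1r (ENSMUSG00000031933) is its neighbour at chr9:14885814-14903949 on the minus strand, with 2320 bases of exon, so that the 3′ ends of the 2 genes face each other 15025 bases apart. Nrp1 (ENSMUSG00000025810) spans chr8:128358604-128503363 on the plus strand with 9785 bases of exon, of which 0.818% is shared with a microRNA gene, Mir1903. Capg (ENSMUSG00000056737) spans chr6:72544391-72562983 on the plus strand, and Cd4 (ENSMUSG00000023274) spans chr6:124864692-124888221 on the minus strand. The exons of Gpr83, Izumo1r, Capg and Cd4 overlap no other annotated gene. The names of the count files point to union counting without regard to strand, under which reads on the exons of several genes are left out.

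The bases before the RefSeq start of Gpr83 and a stretch before that of its neighbour Izumo1r are shown because Gpr83 was called between the ages and its adjoining gene was not. Both are taken from RefSeq (GRCm38.p6) and run 5′ to 3′ on the strand of the gene. The RefSeq start of Gpr83 is also its GENCODE start, whereas the RefSeq start of Izumo1r lies 182 bases downstream of the GENCODE one. The Gpr83 stretch, chr9:14859960-14860209 on the plus strand, holds the 250 bases before the start, with capitals for the letters of the SMAD motif. The Izumo1r stretch, chr9:14903877-14903906 on the minus strand, is 30 bases long, with capitals for the letters of the RUNX motif, and falls inside the GENCODE span of the gene.
Gpr83: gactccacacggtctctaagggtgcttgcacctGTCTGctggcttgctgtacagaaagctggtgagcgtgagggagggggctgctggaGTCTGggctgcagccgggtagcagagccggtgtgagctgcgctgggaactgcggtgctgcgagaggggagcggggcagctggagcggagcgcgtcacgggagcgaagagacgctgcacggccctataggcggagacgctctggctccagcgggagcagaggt
Izumo1r: gggatctctggtACCACAaggtcttgtttc

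Promoter sequence was found for 4 of the 5 genes, Gpr83, Izumo1r, Nrp1 and Capg. The 250 bases before their RefSeq starts were searched on both strands for 7 motifs of factors active in T cells, beside the 32851 promoters of the table. The RefSeq starts of Nrp1 and Capg lie 469 and 5256 bases downstream of their GENCODE starts, so that both windows fall inside the spans given above, and positions here count from the RefSeq start. The SMAD letters (CAGAC) occurred in 42.2% of all promoters, and were found at 2 places in Gpr83, with first bases at -217 and -162, and at 1 place in Izumo1r, at -219. The RUNX letters (TGTGGT) occurred in 14% of promoters, and of the 4 genes were found in Izumo1r, at -127. The NFAT letters (GGAAA) occurred in 55.6% of promoters, and were found in Nrp1 at -172 and in Izumo1r at -197. None of the 4 windows held the forkhead letters TGTTTAC (3.17% of promoters), the AP-1 letters TGANTCA (6.75%), the STAT5 letters TTCNNNGAA (7.02%) or the TCF/LEF letters CTTTGA (13.8%). The Gpr83 window was rich in CpG, with 18 CpG pairs against a median of 6 over all promoters, and the Izumo1r window held 2. The Nrp1 and Capg windows held 11 and 7 CpG pairs. Such matches describe letters only.

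Gene counts per library ranged from 10734234 to 13649310, and the detection limit used, 3 reads, stood at 0.22 to 0.279 CPM (counts scaled to library size, here on the TMM scale for levels). The T cell and Treg identity of the libraries was checked with fixed marker lists. Foxp3 was present in every library at 394 to 622 CPM, and none of the 6 Treg markers or 4 Cd3 genes was at 0. Of the 6 Treg markers, 1 was called, a share near the 16.7% of all genes tested. It was Lrrc32, which anchors latent TGF-beta at the surface of Tregs and fell from 267 to 131 CPM (log2 fold change -1.02, edgeR adjusted p = 0.0083). The median log2 fold change of the 6 was 0.33, and at an unadjusted p under 0.05 of edgeR 3 were higher and 2 lower in aged Tregs. Transcripts of other cells were present too. The share of mitochondrial transcripts was 5.08% to 10.7% in aged and 2.63% to 3.23% in young libraries, without overlap. Haemoglobin transcripts made up 1.27% to 13.1% of aged and 1.24% to 10.4% of young libraries, with overlap.

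Of the 5 markers, Gpr83 fell in aged Tregs and the other 4 did not pass the test. Gpr83 was 3.27-fold lower in aged than in young Tregs. The other 4 genes had log2 fold changes from -0.30 (Cd4) to 0.27 (Izumo1r). A gene was called a differentially expressed gene (DEG) with an adjusted p-value under 0.05 in the quasi-likelihood test of edgeR, adjusted by the Benjamini-Hochberg method over all genes tested. Of all 13904 genes, 2327 were called (16.7%), of which 965 (6.94%) were lower and 1362 (9.8%) were higher in aged Tregs. At 1 of 5, the share of called markers was near this background, so the result concerns Gpr83 and not the markers as a group.

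**Figure D1:**
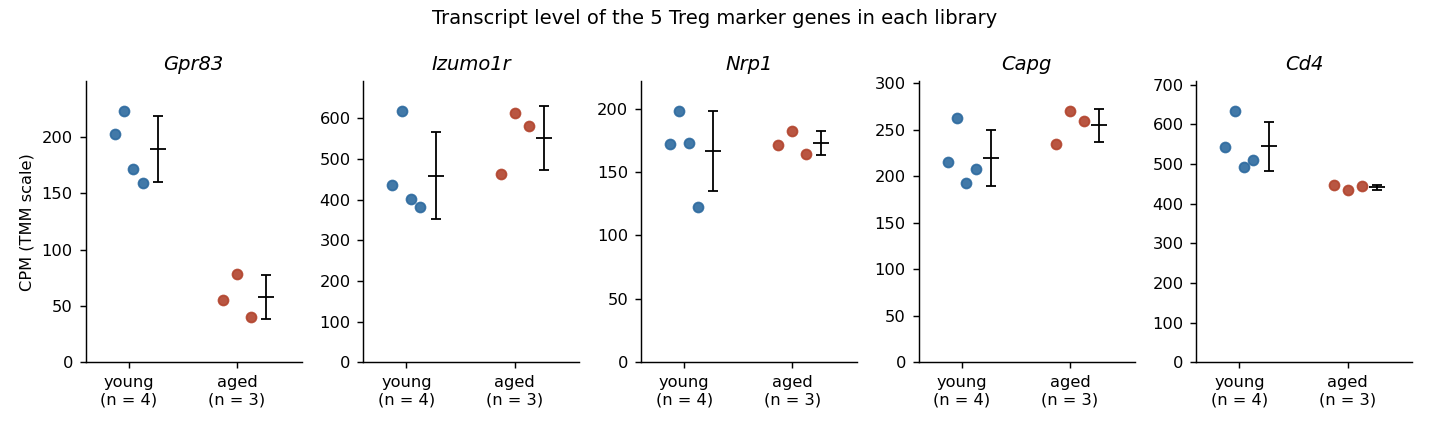
CPM on the TMM scale (vertical axis, from 0) of each of the 5 genes in the 4 young (blue) and 3 aged (red) libraries, each point 1 library, with mean and SD beside the points. Gpr83 is at 39.9 to 78.8 CPM in aged and 159 to 223 CPM in young libraries, Cd4 is separated by a smaller step, and the points of Izumo1r, Nrp1 and Capg overlap.

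Gpr83, the G protein-coupled receptor, was measured at 55.0, 78.8 and 39.9 CPM in aged replicates 1 to 3. In young replicates 1 to 4 it was measured at 203, 223, 172 and 159 CPM. Every aged library lay below every young library, and the highest aged value was less than the lowest young value by a wide gap. Aged Tregs had a mean of 57.9 ± 19.6 CPM (SD, n = 3), against 189 ± 29.1 CPM (SD, n = 4) for young Tregs, which gave a log2 fold change of -1.71 (SE 0.232, 95% interval -2.24 to -1.18, edgeR adjusted p = 0.00274). Among all genes tested, 118 had a lower log2 fold change and 293 had a smaller p-value. Between 426 and 3181 reads lay behind each value, so that counting error was at most 4.85% and well under the spread between replicates. Gpr83 was called under all 19 alternative settings, 7 of which left out 1 library each, and without 1 library its estimate ranged from -1.99 to -1.50. An exact permutation test of the log2 CPM, with 0.5 added to CPM, gave p = 0.0571 (two-sided), the smallest value that 3 against 4 libraries allow.

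Izumo1r, the neighbour of Gpr83 and the marker with the most transcripts per length, had 463, 612 and 581 CPM in the aged libraries. The young libraries had 437, 618, 402 and 381 CPM. The 2 groups overlapped, because young replicate 2 was as high as the highest aged library. The aged mean was 552 ± 78.6 CPM (SD, n = 3) and the young mean 459 ± 108 CPM (SD, n = 4). Its log2 fold change of 0.27 (SE 0.189, 95% interval -0.17 to 0.70, edgeR adjusted p = 0.372) has an interval that leaves room for a small fall as well as for a 1.62-fold rise. Izumo1r was called under none of the 19 alternatives. Leaving out young replicate 2 gave 0.44 (edgeR adjusted p = 0.0705).

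Nrp1, the semaphorin and growth factor co-receptor, had 172, 183 and 165 CPM in aged libraries. Young libraries had 172, 198, 173 and 123 CPM. The aged values lay inside the range of the young ones. Means were 173 ± 9.10 CPM (SD, n = 3) and 167 ± 31.5 CPM (SD, n = 4). The log2 fold change was 0.05 (SE 0.155, 95% interval -0.30 to 0.41, edgeR adjusted p = 0.846), and changed sign in 4 of the 19 alternatives. Nrp1 was called in none of them.

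Cd4, the MHC class II co-receptor and a marker by which the labels name the cells, had 446, 434 and 443 CPM in aged libraries. Young libraries had 542, 633, 493 and 511 CPM. Every aged library lay below every young library, which was also true of 14.4% of all genes tested (29.9% of genes did not overlap in either direction). The aged values lay close together, at 441 ± 6.34 CPM (SD, n = 3), beside a young mean of 545 ± 62.1 CPM (SD, n = 4). Its log2 fold change was -0.30 (SE 0.119, 95% interval -0.58 to -0.03), and the adjusted p of edgeR was 0.117, so Cd4 was not called. It passed the threshold in 2 of the 19 alternatives, with DESeq2 (log2 fold change -0.33, adjusted p = 0.0387) and with edgeR after scaling to the Cd3 genes (-0.56, adjusted p = 0.0306).

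Capg, the actin capping protein, had 235, 270 and 259 CPM in aged libraries. Young libraries had 215, 263, 192 and 208 CPM. Young replicate 2 again lay among the aged values, and the groups overlapped. Means were 255 ± 17.8 CPM (SD, n = 3) and 220 ± 30.5 CPM (SD, n = 4), with a log2 fold change of 0.21 (SE 0.127, 95% interval -0.08 to 0.50, edgeR adjusted p = 0.28). Capg was called in none of the 19 alternatives. Young replicate 2 had the highest young value of all 5 genes, of Foxp3 and of each of the 4 Cd3 genes. Its summed plasma cell markers were at 1999 CPM, against 325, 497 and 414 CPM in young replicates 1, 3 and 4. Its summed erythroid markers, at 12381 CPM, were the lowest of the young libraries. The part of this cell content in its marker values was not tested.

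**Figure D2:**
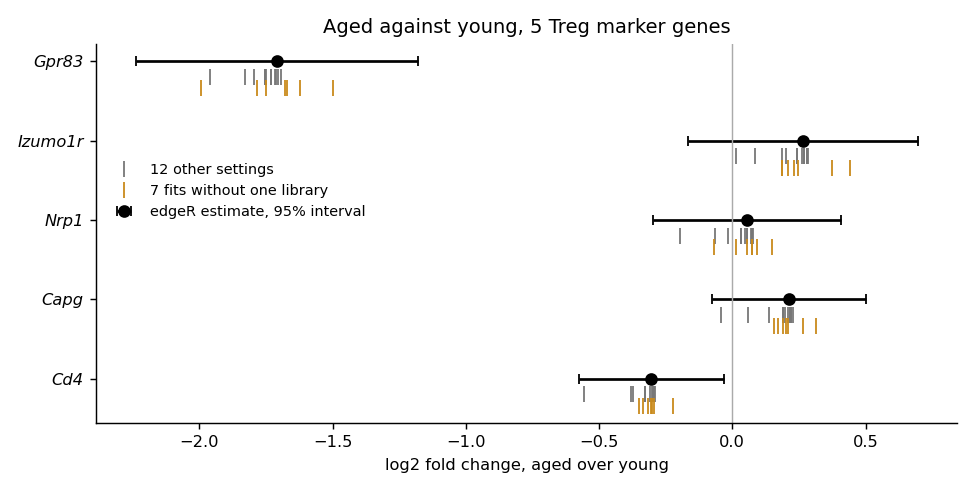
log2 fold change of the 5 genes, aged over young (horizontal axis), with the edgeR estimate and its 95% interval (black), the estimates of 12 other settings (grey ticks) and of the 7 fits that leave out 1 library (orange ticks). All estimates of Gpr83 lie at or below -1.50, and the interval of Cd4 ends at -0.03, whereas those of Izumo1r, Nrp1 and Capg include 0.

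Levels were compared between genes as CPM per kb of exon. In young Tregs the order was Izumo1r (198), Cd4 (135), Capg (86.9), Gpr83 (37.1) and Nrp1 (17.0), as means of 4 libraries. In aged Tregs it was Izumo1r (238), Cd4 (109), Capg (101), Nrp1 (17.7) and Gpr83 (11.4). Gpr83 thus passed from the fourth place to the last, below Nrp1. No neighbours in either order had overlapping ranges. The narrowest step was that of Cd4 over Capg in aged Tregs, at 108 to 111 over 93.0 to 107 CPM per kb. The lowest aged Nrp1 value was 16.8 and the highest aged Gpr83 value was 15.5 CPM per kb. These lengths count all annotated exons, and transcripts that use fewer exons would have higher values.

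**Figure D3:**
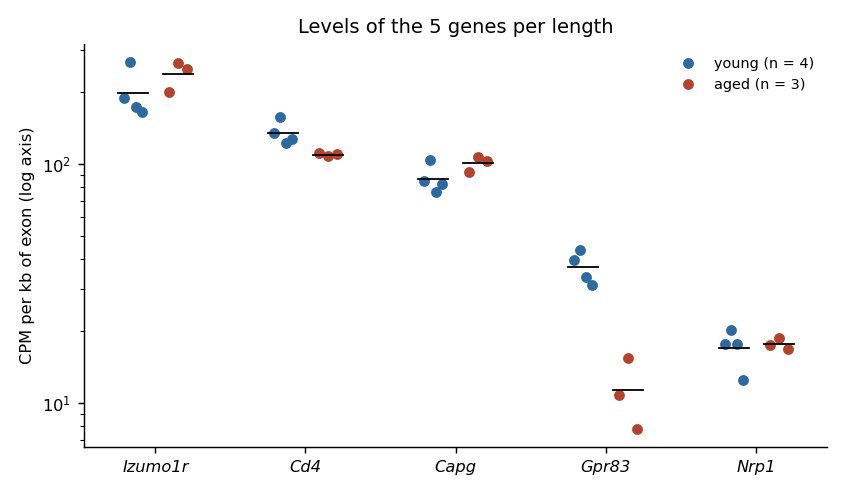
CPM per kb of exon (log axis) of the 5 genes, ordered by their young mean, each point 1 library and each line a group mean. Gpr83 is above Nrp1 in young libraries (37.1 against 17.0) and below it in aged libraries (11.4 against 17.7).

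To set the markers against the T cells and the Foxp3+ cells of the same library, each was divided by the mean of 4 Cd3 genes (Cd3d, Cd3e, Cd3g and Cd247, subunits of the T cell receptor complex) and by Foxp3, as log2 ratios of CPM with 0.5 added. As a mean, the Cd3 genes differed by 0.26 and Foxp3 by 0.20 on the log2 scale, both with overlap, and Foxp3 itself had an aged mean of 516 ± 93.3 CPM (SD, n = 3) and a young mean of 446 ± 61.8 CPM (SD, n = 4) (edgeR adjusted p = 0.409). Of the 4 Cd3 genes, Cd3e rose in aged Tregs without overlap, from 223 to 308 CPM (log2 fold change 0.46, edgeR adjusted p = 0.0301, called in 9 of the 19 alternatives), which enters the ratios to the Cd3 genes. Of the exons of Foxp3, 31.5% overlap other annotated genes, and of those of Cd247, 60.3%. Il2ra, which encodes the CD25 of the labels, was 380 ± 87.0 CPM in aged and 579 ± 94.3 CPM in young Tregs (log2 fold change -0.61, edgeR adjusted p = 0.0588). It passed the threshold in 7 of the 19 alternatives, among them the fit without aged replicate 1 (-0.81, edgeR adjusted p = 0.0158).

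Relative to the Cd3 genes, Gpr83 was at -2.23, -1.93 and -2.95 in aged libraries. Its ratios in young libraries were -0.18, -0.38, -0.40 and -0.52. The aged ratio was 4.00-fold lower, without overlap. Relative to Foxp3, Gpr83 was at -3.49, -2.59 and -3.47 in aged libraries and at -1.19 to -1.31 in young ones, where the 4 libraries agreed within an SD of 0.0531. The difference was -1.95, a 3.85-fold lower ratio, without overlap.

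Cd4 was lower relative to both denominators. Relative to the Cd3 genes it was at 0.60 ± 0.149 (SD, n = 3) in aged Tregs and at 1.16 ± 0.0501 (SD, n = 4) in the young, a 1.47-fold lower ratio. Relative to Foxp3 the ratio was 1.41-fold lower, and neither comparison overlapped. The differences of Izumo1r, Nrp1 and Capg were 0.02, -0.18 and -0.04 relative to the Cd3 genes, and 0.08, -0.13 and 0.02 relative to Foxp3, all 6 with overlap. Exact permutation tests (two-sided) of the 10 ratios gave p = 0.0571 for the 4 ratios of Gpr83 and Cd4, the smallest possible, and p from 0.229 to 1 for the other 6. Scaling all genes to the Cd3 genes moved the median of all genes to -0.25, and relative to that median Gpr83 was at -1.71 and Cd4 at -0.31.

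**Figure D4:**
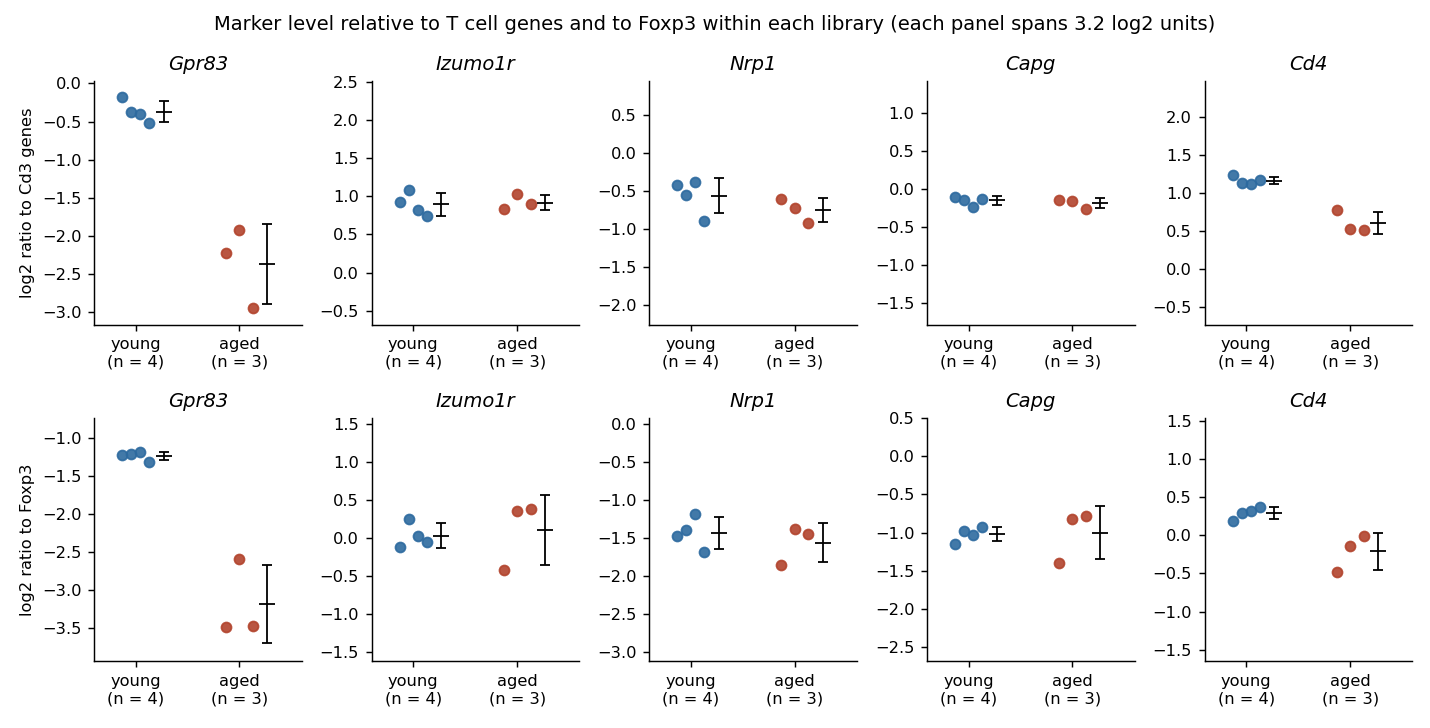
log2 ratio of each of the 5 genes to the mean of 4 Cd3 genes (top) and to Foxp3 (bottom) within each young (blue) and aged (red) library, with mean and SD; each panel spans 3.2 log2 units. Gpr83 and Cd4 do not overlap between ages in either row, and Izumo1r, Nrp1 and Capg overlap in both.

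Gpr83 was also compared with each other marker inside the same library, a comparison chosen after its values were seen. As a percentage of Izumo1r CPM, Gpr83 was 6.86% to 12.9% in aged and 36.1% to 46.5% in young libraries. As a percentage of Nrp1 CPM it was 24.2% to 43.1% in aged and 99.3% to 129% in young libraries. Against Capg it was 15.4% to 29.2% and 76.3% to 94.4%, and against Cd4 it was 8.99% to 18.1% and 31.1% to 37.5%. The aged and young ranges were apart in all 4 pairs, with log2 differences of -2.02, -1.82, -1.96 and -1.44. Each of these 4 exact permutation tests gave p = 0.0571, the smallest possible, and the 4 share the Gpr83 values.

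Around each marker, a list of related genes was set, and its counts are given beside the 16.7% called and the median log2 fold change of 0.02 over all genes. In a list of 26 genes, G protein-coupled receptors of lymphocytes, the class to which Gpr83 belongs, with the ligand precursor Pcsk1n, 24 genes were tested, 9 rose and 3 fell (50%), with a median of 0.28. Gpr183, a receptor for oxysterols that guides lymphocyte position, rose from 35.6 to 64.3 CPM (log2 fold change 0.85, edgeR adjusted p = 0.00114). Ptger2, a prostaglandin E2 receptor, rose by 1.37 and Gpr15, a homing receptor, by 1.61 on the log2 scale. S1pr1, the receptor by which T cells leave lymphoid organs, fell from 250 to 143 CPM (-0.81, edgeR adjusted p = 0.00513). P2ry10, the other most abundant member of this list beside S1pr1, was at 191 and 210 CPM in aged and young Tregs (edgeR adjusted p = 0.791). Pcsk1n was not tested and had 1 read over all 7 libraries.

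Of 28 Treg signature genes, all tested, 7 rose and 2 fell (32.1%), with a median of 0.51. Itgae, the integrin CD103, rose from 48.6 to 180 CPM (log2 fold change 1.89, edgeR adjusted p = 0.000898). Tigit, an inhibitory receptor, rose by 1.58 and Penk, the enkephalin precursor, by 1.71. Ecm1, a secreted matrix protein, fell from 130 to 51.6 CPM (-1.33, edgeR adjusted p = 0.0019). Ctla4 and Il2rb, the most abundant members, were at 768 and 732 CPM in aged and 423 and 933 CPM in young Tregs (edgeR adjusted p = 0.103 and 0.262), and without young replicate 2 Ctla4 was called (log2 fold change 1.24, edgeR adjusted p = 0.00593). Without young replicate 1 or 3 the number of called genes was 5, and without young replicate 2 it was 14.

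Semaphorins, plexins, growth factors and receptors related to Nrp1 made up a list of 32 genes, of which 22 were tested, 4 rose and 2 fell (27.3%), with a median of 0.10. Of the class 3 semaphorins, Sema3d was tested, and the others were not. Sema3a had 19 reads over all libraries. Sema4a, the Nrp1 ligand named above, was at 35 CPM in aged and 41.2 CPM in young Tregs (edgeR adjusted p = 0.14). Plxnb1, a plexin, rose from 6.91 to 14.2 CPM (1.04, edgeR adjusted p = 0.00322), and Sema7a and Sema4c rose by 0.70 and 0.91. Gipc1, an adaptor that binds the tail of Nrp1, fell from 33.8 to 23.3 CPM (-0.54, edgeR adjusted p = 0.0231). Sema4d, the most abundant member, was not called, with a log2 fold change of -0.24. The count of called genes was 1 to 3 without aged replicate 3 or young replicate 1, 3 or 4.

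Among the folate binding, transport and one-carbon genes, set around the folate receptor family of Izumo1r, 22 of 25 genes were tested, 1 rose and 2 fell (13.6%), with a median of 0.03. The share was near that of all genes. Folr1 and Folr2, the folate-binding receptors of the family, had 8 and 46 reads over all libraries and were not tested. Mthfs, which returns a stored folate to use, rose from 3.53 to 7.75 CPM (1.13, edgeR adjusted p = 0.00795), while the methionine synthase gene Mtr and its reductase Mtrr fell by 0.48 and 0.43 on the log2 scale. Shmt2 and Atic, the most abundant members, had log2 fold changes of -0.01 and -0.20 and were not called. The number of called genes was 8 without aged replicate 1, and 1 without aged replicate 2 or 3 or young replicate 1, 3 or 4.

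Among the actin capping and severing genes, set around Capg, 29 of 32 genes were tested, 3 rose and 6 fell (31.0%), with a median of -0.14. Scin, a severing protein of the gelsolin family, rose from 2.30 to 13.7 CPM (2.58, edgeR adjusted p = 0.00258). Tmod3, which caps the opposite filament end to Capg, fell from 150 to 101 CPM (-0.58, edgeR adjusted p = 0.00491), and Coro1c and Eps8 fell by 0.61 and 1.31 on the log2 scale. Gsn, the gelsolin gene, had a log2 fold change of -0.05. Actb and Tmsb4x, the most abundant members, were at 0.37 and -0.06 on the log2 scale and were not called by edgeR. Actb did not overlap between the ages and passed the threshold with DESeq2 (adjusted p = 0.0194) and limma voom (adjusted p = 0.0416). The number of called genes was 5 without aged replicate 2, aged replicate 3 or young replicate 3.

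Among the T cell receptor complex genes, co-receptors and regulators of the Cd4 gene, all 25 genes were tested, 2 rose and 5 fell (28%), with a median of 0.07. Lag3, a CD4-related receptor that binds MHC class II, rose from 25.2 to 149 CPM (2.56, edgeR adjusted p = 0.00125). Zbtb7b, which encodes the CD4 lineage factor ThPOK, fell from 143 to 87.3 CPM (-0.71, edgeR adjusted p = 0.0184). Myb and Tcf3, transcription factors of T cell development, fell by 1.30 and 0.77 on the log2 scale. Ptprc and Lck, the most abundant members, had log2 fold changes of -0.12 and 0.03 and were not called. The count of called genes was 3 or 4 without aged replicate 2 or 3 or young replicate 1, 3 or 4.

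Of 15 genes that are lower in Tregs than in other CD4 T cells, 12 fell and 0 rose (80%; at an unadjusted p under 0.05 of edgeR, 13 and 0), with a median of -1.13. Lef1, a transcription factor of naive T cells, fell from 110 to 50.2 CPM (-1.13, edgeR adjusted p = 0.000617). Satb1 fell by 1.43 and Dapl1 by 2.40 on the log2 scale. Tcf7, the T cell factor related to Lef1, fell by 0.43. Several of these genes also mark naive T cells, and the list does not tell naive Tregs from naive cells of other kinds.

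**Figure D5:**
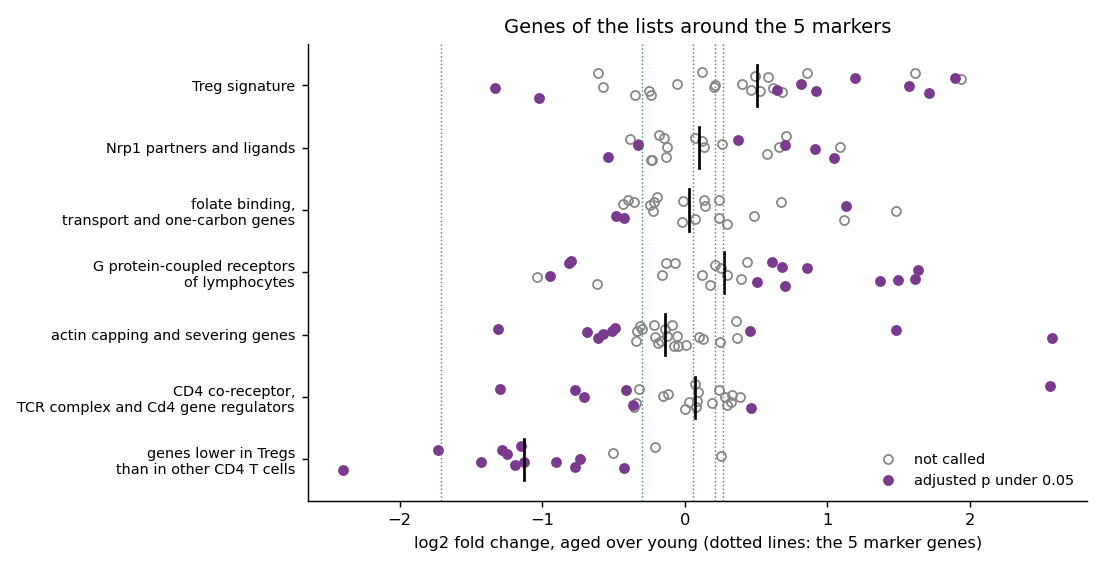
log2 fold change, aged over young (horizontal axis), of the genes tested in 7 lists around the 5 markers, each circle 1 gene, filled where edgeR called it, with black bars for the list medians and dotted lines for the 5 markers. The genes lower in Tregs than in other CD4 T cells have a median of -1.13, and the other 6 lists have medians from -0.14 to 0.51.

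The summed markers of 5 of the 15 cell types and states followed here did not overlap between the ages, as was the case for Gpr83, Cd4 and 29.9% of all genes tested. Counts of single markers called stand beside 16.7% of all genes tested, 6.94% lower and 9.8% higher in aged Tregs. The sum of the 6 naive T cell markers was 905 to 1149 CPM in aged and 1938 to 2112 CPM in young libraries, and all 6 fell, among them Lef1 (-1.13). The sum of the 7 effector memory T cell markers was 397 to 462 CPM in aged and 218 to 266 CPM in young libraries, and 4 of 7 rose, among them Cxcr3 (1.64). The sum of the 6 endothelial or stromal markers was 127 to 142 CPM and 181 to 206 CPM, with 1 gene called, Pecam1 (-0.63), which T cells also express. Pecam1, at 115 CPM in aged and 178 CPM in young Tregs, made up most of both sums. The median log2 fold change of the 6 was 0.50. At an unadjusted p under 0.05 of edgeR, 2 of the 6 were higher and 1 was lower in aged Tregs. The sums of the 5 NK cell markers (19.8 to 33.4 and 34.3 to 60.3 CPM) and of the 5 platelet markers (20.2 to 39.5 and 8.20 to 17.3 CPM) were low, and 1 gene of each was called, Klrb1c (-0.73) and Ppbp (1.80). The 7 neutrophil markers had the highest median log2 fold change of the 15 lists, at 2.19. Their sum was 667 to 5235 CPM in aged and 257 to 925 CPM in young libraries, with overlap, 3 of 7 rose, and all 7 were higher in aged Tregs at an unadjusted p under 0.05 of edgeR. No marker of these 6 lists was at 0. The part of these markers, and of the mitochondrial share given above, in the difference of Gpr83 and Cd4 was not tested.

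Monocyte or macrophage markers, which matter for Capg because macrophages also express it, summed to 314 to 494 CPM in aged and 435 to 505 CPM in young libraries, with overlap. Of these 7 markers 3 fell, beside 6.94% of all genes tested. Plasmacytoid dendritic cell markers, which matter for Nrp1, summed to 81.9 to 123 and 98.2 to 113 CPM, with overlap, and 2 of the 4 tested fell. B cell markers summed to 834 to 1547 and 1255 to 1895 CPM, with 0 of 6 called by edgeR and 2 lower in aged Tregs at an unadjusted p under 0.05.

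The genes whose profile over the 7 libraries was most like that of each marker were taken by the root mean square difference of their mean-centred log2 CPM, among genes with a mean log2 CPM of at least 3. For Gpr83 these were Lad1 (difference 0.159), Ecm1 (0.226) and Ccr9 (0.23). Lad1, which encodes ladinin, a protein of basement membranes, fell from 40.0 to 11 CPM (-1.87, edgeR adjusted p = 0.000383), and Ccr9, a gut homing chemokine receptor, from 18.7 to 5.01 CPM (-1.90, edgeR adjusted p = 0.00125). Ccr9 is also 1 of the plasmacytoid dendritic cell markers. For Izumo1r the nearest genes were Acadsb (0.0769), Cd3g (0.0956) and Acy1 (0.0977), for Nrp1 Sh3bgrl2 (0.0539), Rcbtb2 (0.0848) and Ict1 (0.0883), for Capg Fam169b (0.0405), Rabac1 (0.0409) and Sytl1 (0.0469), and for Cd4 Tnip1 (0.0425), Rab8a (0.0453) and Agpat3 (0.0461). Since the profiles include the difference between the ages, a gene chosen this way shares that difference with its marker.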

How the data were processed

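RNA was isolated from bead-selected cells, and SMART-Seq cDNA libraries were built, which carry no molecular identifiers, so that detection limits cover counting error only. The authors deposited raw read counts per gene for each library. The names and layout of the files are those of union counting without strand. The authors also deposited signal values, which equal the counts divided by a constant per library, with their own fold changes and p-values, which were not used. Per the labels, the build was mm10; the aligner is not given in the sources used here. Reads on no gene or several genes (13.1% to 20.9%) were left out.

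The age groups were tested in R 4.3.3 by the quasi-likelihood method of edgeR 4.0.16, with TMM factors, filterByExpr, no covariate and an adjusted p under 0.05 over 13904 genes. The methods of the study name limma, used here as an alternative (limma 3.58.1), as was DESeq2 1.42.0. The study reported 2910 DEGs, which is also the number that DESeq2 called here. The limma alternatives called 2283 (voom) and 2370 (trend). Other alternatives were RLE or library size scaling, scaling to Cd3 genes, 331 mitochondrial, immunoglobulin and haemoglobin genes left out, other filters, removal of GC and length trends, thinning, a replicate block and each library left out. The fit was also run on simulated data with 200 changed genes, the outcome of which is not reported here.

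The markers, lists and tests were chosen with earlier results of these data known. Genes named beside the markers are Foxp3, Il2ra, the up to 4 called genes of smallest p and the 2 most abundant genes of each list, the 3 nearest profiles, and 1 marker of each cell type whose summed markers did not overlap. Sema4a, Sema3d, Gsn, Cd3e, Lrrc32, the genes given by read totals (Sema3a, Folr1, Folr2, Pcsk1n) and the genes near the markers were named after their values were seen. Some genes that this rule names are not reported here. Coordinates are those of GENCODE M21, matched by gene identifier.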

Additional observations from a re-analysis of the deposited data

Results flagged for a closer look

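Of 75 groups of 4 young libraries tested for 1 value far from the others, 3 exceeded the critical value, and chance gives about 1 in 20. None was one of the 5 markers. Lef1 had 124 CPM in young replicate 2 and 104 to 107 CPM in the other 3 (gap over range on the log2 scale 0.851). Rabac1, a gene near Capg in profile, had 97.5 CPM in young replicate 2 and 73.7 to 76.3 CPM in the others (0.876). Sh3bgrl2, the gene nearest to Nrp1 in profile, had 15.3 CPM in young replicate 4 and 23.3 to 24.9 CPM in the others (0.862).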

How the results depend on the processing

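The direction and call of Gpr83 and Izumo1r held in all 19 alternatives. Cd4 passed the threshold with DESeq2 (-0.33) and scaled to the Cd3 genes (-0.56). Nrp1, which was not called, changed sign with library size only (-0.017), scaled to the Cd3 genes (-0.19) and with the replicate block (-0.065), and ranged from -0.067 to 0.15 without 1 library; Capg was at -0.042 scaled to the Cd3 genes. Higher and lower calls numbered 1362 and 965, against 637 and 1485 scaled to the Cd3 genes and 1210 and 1474 with GC and length trends removed. The number of DEGs was 2327, and 1237 to 3058 without 1 library. It was 1262 without aged replicate 3, and 1315, 1270 and 1237 without young replicates 1, 3 and 4.

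Replicate numbers did not pair the samples. Deviations of same-numbered libraries correlated at -0.09, -0.29 and -0.14 over 13904 genes, and no library correlated best with its own number. The fit with the replicate block called 292 genes, and Gpr83 was among them (-1.83, edgeR adjusted p = 0.0289). In the 7 lists it called 0 to 6 genes. With library size only, 1 folate gene and 4 genes of the T cell receptor list were called, and with no filter also 4 of the latter; scaled to the Cd3 genes, 3 genes of the Nrp1 list were called.

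Of the 60 other genes that the naming rule gives, the 35 called kept their direction throughout, and 16 of them their call. The call was lost in 9 alternatives for Mtrr, 7 for Mtr and Sema7a, 6 for Tcf7, 5 for Gipc1 and Sema4c, 4 for Zbtb7b, Klrb1c and Ppbp, and 1 or 2 for the other 10. Calls were gained in 7 alternatives for Il2ra, 2 for Actb and Tnip1, and 1 for Ctla4, Rab8a and Agpat3, among the genes reported here. Of the genes not called, 11 changed sign somewhere. Scaled to the Cd3 genes, Fam169b was at -0.0051, Foxp3 at -0.025, Ict1 at -0.12, Lck at -0.23, Rabac1 at -0.090, Rcbtb2 at -0.21, Sh3bgrl2 at -0.21 and Sytl1 at -0.042. With library size only, Lck was at -0.047, Rcbtb2 at -0.025 and Sh3bgrl2 at -0.032. With the replicate block Rcbtb2 was at -0.038 and Sh3bgrl2 at -0.097, and with GC and length trends removed Lck was at -0.083. Shmt2 was at 0.00061 with at least 10 counts in every library and at 0.0026 when thinned. Without 1 library, Lck ranged from -0.046 to 0.10, P2ry10 from -0.29 to 0.20, Rcbtb2 from -0.039 to 0.11, Sh3bgrl2 from -0.094 to 0.12, Shmt2 from -0.21 to 0.16 and Tmsb4x from -0.18 to 0.067. The causes were not tested. Genes with a few reads, such as Folr1 and Pcsk1n, could not be compared at this depth.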

Other observations

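Genes within 50 kb of a marker were looked at after the data were seen. Of the 13 genes tested there, counted once, 2 were called by edgeR, near the 16.7% of all genes. One was Gpr83 itself, as the neighbour of Izumo1r, and Mre11a, a DNA repair gene that lies beyond Gpr83, had an aged mean of 41.4 ± 2.63 CPM (SD, n = 3) and a young mean of 49.1 ± 2.67 CPM (SD, n = 4) (log2 fold change -0.25, edgeR adjusted p = 0.0987). The other was Lag3, which lies 16140 bases from Cd4 and was at 149 ± 66.5 CPM in aged and 25.2 ± 4.87 CPM in young Tregs (2.56, edgeR adjusted p = 0.00125). Gpr162 and P3h3, which are also near Cd4, were at 3.32 and 1.37 CPM in aged and 2.39 and 0.634 CPM in young Tregs and were not called (edgeR adjusted p = 0.315 and 0.129). None of the 3 genes tested near Capg was called, and no tested gene lay within this distance of Nrp1.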
